A study of Mus musculus with 2 samples.

Results

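The 10 genes described here encode the Fos proteins (Fos, Fosb, Fosl1, Fosl2), the Jun proteins (Jun, Junb, Jund), the BATF proteins Batf and Batf3, and Atf3, all of them factors of the AP-1 class. They were chosen by name, with earlier results of these data known. Every probe set whose only gene symbol in the platform annotation was 1 of these names was taken. That gave 14 of the 45037 probe sets and 10 of the 18193 named genes, and no probe set with several symbols held a member. Interleukin-5-producing (IL-5+) memory cells of the T helper 2 (Th2) type were set against IL-5- memory Th2 cells, which did not produce it. Both fractions came from splenic CD4 T cells of DO11.10 mice, whose transgenic T cell receptor recognises an ovalbumin peptide, on the BALB/c background. The cells were kept with the peptide, 25 U/ml IL-2 and 100 U/ml IL-4 for 6 days, moved into BALB/c nu/nu recipients, which lack a thymus but keep their own B cells, NK cells and myeloid cells, and taken from the recipients' spleens after 30 days. Each fraction was hybridised to 1 Affymetrix array. The labels give neither the age of the mice, nor the number of recipients, nor whether RNA was pooled, nor how the cells were treated and stained to reveal IL-5 before the sort.

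AP-1 factors are basic leucine zipper (bZIP) proteins that bind DNA as dimers. Fos proteins cannot form stable dimers with each other and pair with Jun proteins, whereas Jun proteins can also pair among themselves, and T cell receptor signals through the MAP kinases raise both families. BATF proteins lack the transactivation domain of Fos, also pair with Jun proteins, and in T cells bind composite sites together with the interferon regulatory factors IRF4 and IRF8. In Th2 cells, JunB and BATF are known regulators of cytokine genes such as Il4.

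With 1 array per group there was no replicate check and no test, and no p-value is given. Values are deposited signals, which are linear brightness values without a unit, and log2 ratios, with the IL-5+ signal divided by the IL-5- signal. A signal of 36.3, the 40th percentile of all signals, served as a floor, and 2-fold (a log2 ratio of 1) was the limit for counting a gene as higher or lower. The error beside a ratio is the SD of this ratio among probe sets that share a gene and lie at like brightness. It was 0.55 at mean signals between 36.3 and 112.8, 0.37 from 112.8 to 500, 0.21 from 500 to 2000 and 0.13 above 2000, and it leaves out the variation between cell preparations. As a check of the labels, the Il5 signal was 37085 for IL-5+ cells against 67.4 for IL-5- cells. T cell identity was seen on both arrays, with Cd3d at 9116 for IL-5+ against 13553 for IL-5- cells, Lat at 8510 against 9253 and Cd4 at 454.5 against 471, and none of the 9 T cell markers with a named probe set was 2-fold apart. They leaned one way, with 8 of the 9 at a log2 ratio below 0 (lowest Cd247, -0.81) and 1 above (Zap70, 0.10). The RNA came from bulk fractions, so fewer cells with a transcript and less transcript per cell cannot be told apart.

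The members that differed most between the fractions were Fos genes. Of the 4 Fos genes, 3 were at least 2-fold higher in IL-5+ cells (Fos, Fosl2 and Fosb), and the family's median log2 ratio was 1.03. None of the 3 Jun genes and none of the other 3 members reached 2-fold either way, with medians of 0.076 and -0.46. In all, 3 of 10 members were at least 2-fold higher, 0 of 10 were lower, and 7 of 10 had a log2 ratio above 0. Across all 13133 named genes above the floor, 2.85% were at least 2-fold higher, 4.01% lower and 44.5% above 0, and the median log2 ratio was -0.048, against 0.31 for the 10 members. Among the 8 members whose brighter signal was 500 or more, 3 were higher and 0 lower, where 2.22% of all genes this bright were higher and 2.46% lower. By probe set, 3 of the 13 member probe sets above the floor were at least 2-fold higher and 0 lower, against 2.95% and 3.89% of named probe sets. All 10 members had a brightest probe set above the floor on both arrays, so no ratio of a member is a bound.

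The start regions of these genes are shown because Fos, Fosb and Fosl2 were higher together while Batf3 and Atf3 had the lowest ratios, and Jun stands for its own family. Each line gives the 100 bases just before the transcription start, 5′ to 3′ on the gene's strand, from RefSeq promoter windows of GRCm38.p6, which held 9 of the 10 members. The windows lie at chr12:85473790-85473889 on the plus strand for Fos, chr7:19310046-19310145 on the minus strand for Fosb, chr5:32136372-32136471 on the plus strand for Fosl2, chr4:95052223-95052322 on the minus strand for Jun, chr1:191098314-191098413 on the plus strand for Batf3 and chr1:191183334-191183433 on the minus strand for Atf3. Capitals mark matches, on either strand, to TGACG, the core of the cyclic AMP response element (CRE), or to TGACNTCA, a full CRE-like site.
Fos: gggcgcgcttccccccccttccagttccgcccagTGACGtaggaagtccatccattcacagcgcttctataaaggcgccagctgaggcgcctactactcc
Fosb: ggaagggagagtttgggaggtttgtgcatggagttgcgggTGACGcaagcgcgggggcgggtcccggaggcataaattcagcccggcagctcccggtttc
Fosl2: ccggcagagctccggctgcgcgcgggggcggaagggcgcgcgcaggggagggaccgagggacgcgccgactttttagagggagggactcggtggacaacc
Jun: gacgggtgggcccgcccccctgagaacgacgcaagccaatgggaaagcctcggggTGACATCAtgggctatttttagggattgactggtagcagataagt
Batf3: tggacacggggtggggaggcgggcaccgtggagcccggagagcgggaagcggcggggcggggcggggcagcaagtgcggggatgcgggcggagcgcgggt
Atf3: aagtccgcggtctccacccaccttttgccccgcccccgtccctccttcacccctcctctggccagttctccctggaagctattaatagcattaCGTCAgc

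Positions are counted backwards from -1, the base before the start. In the whole windows of 300 bases (250 before and 50 after the start), Fos held TGACG at -129 and -66, Fosb at -60, Junb at -106 and Batf at -98. Atf3 held it on the opposite strand from -7, so it reads as CGTCA in the line above. Jun had no TGACG but held TGACATCA at -45, a match to TGACNTCA. The core was thus found in 5 of 9 member windows and in 20.8% of all 32851 windows, and TGACNTCA in 1 of 9 and in 8.83%. These motifs overlap wherever the N is G. The AP-1 site TGANTCA, present in 7.81% of all windows, and the CArG box bound by serum response factor, present in 1.63%, had no match in the 9 windows. Bases outside the windows were not searched, so sites of these kinds further from the start would not be seen. Members on both sides of a ratio of 0 held the core, and Fosl2, which was more than 2-fold higher, held none of the 4 motifs in its window.

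Fos, the founding member and a classical immediate early gene, had the highest ratio of the 10. Its single probe set, 1423100_at, had a signal of 1224 for IL-5+ cells against 322.9 for IL-5- cells. The IL-5+ signal was 3.79-fold higher, a log2 ratio of 1.92 with an SD between probe sets of 0.21. This was the 46th highest ratio of the 13133 named genes above the floor, of which 0.343% lay higher.

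Fosl2, which encodes Fra-2, a Fos protein without the strong transactivation domain of Fos, had 2 probe sets. The brighter, 1437247_at, had signals of 862.6 for IL-5+ cells against 417.2 for IL-5- cells, which is 2.07-fold higher (log2 ratio 1.05, SD 0.21). The dimmer, 1422931_at, had 112.9 for IL-5+ cells against 77.9 for IL-5- cells, a log2 ratio of 0.54 with an SD of 0.55. Both were brighter on the IL-5+ array, but they differed by 0.51 and only the brighter was past 2-fold.

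Fosb, whose full-length product resembles Fos and which also yields a truncated form by alternative splicing, had signals of 570.6 for IL-5+ cells against 282.1 for IL-5- cells at its probe set 1422134_at. The 2.02-fold difference (log2 ratio 1.02, SD 0.37) lay close to the 2-fold line, and 2.70% of genes had a higher ratio. The platform annotation does not say which Fosb form the probe set reads. Fosl1, which encodes Fra-1, had 189.6 (IL-5+) against 161.6 (IL-5-) at 1417487_at. At 1417488_at it had 88.6 (IL-5+) against 96.7 (IL-5-). These are log2 ratios of 0.23 and -0.13, of opposite sign and each within its SD (0.37 and 0.55).

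**Figure D1:**
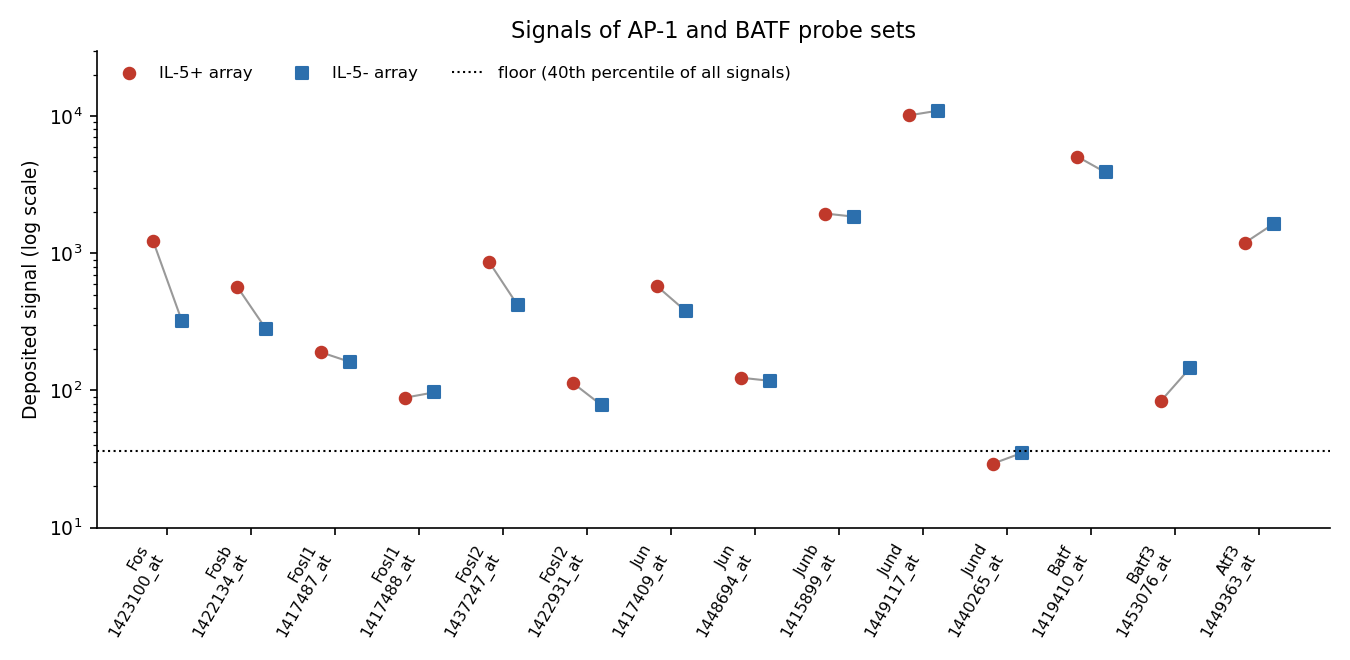
Deposited signal (log axis, no unit) of the 14 probe sets of AP-1 and BATF members, with the IL-5+ array as a circle, the IL-5- array as a square and 1 array per group. Fos has the steepest line between its circle (1224) and square (322.9), the Junb and Jund pairs are nearly level, and Batf3 and Atf3 slope the other way.

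The Jun genes, which supply the partners of Fos and BATF proteins, lay nearer to a ratio of 0. Jun itself had signals of 574.1 for IL-5+ cells against 378.9 for IL-5- cells at 1417409_at, which is 1.52-fold higher (log2 ratio 0.60, SD 0.37). Its second probe set, 1448694_at, had 123.8 (IL-5+) against 117.6 (IL-5-) and a log2 ratio of 0.074. The probe sets thus differed by 0.53, about as much as those of Fosl2, so the ratio of Jun depended on the probe set.

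Junb, which is known to be abundant in Th2 cells and to act on the Il4 promoter, had signals of 1951 for IL-5+ against 1851 for IL-5- cells (1415899_at, log2 ratio 0.076, SD 0.21). This difference was smaller than the usual disagreement between probe sets. Jund, often described as the Jun protein of resting cells, had 10147 for IL-5+ against 10961 for IL-5- cells (1449117_at, log2 ratio -0.11, SD 0.13). Its second probe set, 1440265_at, was at 29.3 (IL-5+) against 35.0 (IL-5-), under the floor on both arrays, and has no ratio. Neither the Junb nor the Jund ratio exceeded its SD.

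Batf, which directs T helper cell differentiation together with IRF4, had signals of 5077 for IL-5+ cells against 3886 for IL-5- cells (1419410_at). The 1.31-fold difference, a log2 ratio of 0.39, was small. It was 2.88 times the SD of 0.13 at this brightness, and 14.3% of genes had a higher ratio. Batf3, a close relative best known from the development of cross-presenting dendritic cells, lay in the opposite direction. It had 84.2 for IL-5+ cells against 145 for IL-5- cells (1453076_at, 1.72-fold lower, log2 ratio -0.78, SD 0.55). Its IL-5+ signal lay under 112.8, the 60th percentile of all signals.

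Atf3, a stress-induced factor that represses many targets as a homodimer, had signals of 1197 for IL-5+ cells against 1643 for IL-5- cells (1449363_at). This is a 1.37-fold lower signal in IL-5+ cells, a log2 ratio of -0.46 with an SD of 0.21. Batf3 and Atf3 held the lowest ratios of the 10, and 7.08% and 16.8% of genes had a lower one. In the RefSeq gene table of GRCm38.p6 they are near neighbours on chromosome 1, with 1 protein-coding gene, Fam71a, between them, which at 3.3 (IL-5+) against 5.1 (IL-5-) did not reach the floor. Fos and Batf are near neighbours on chromosome 12, with Jdp2, another AP-1 gene, as the 1 protein-coding gene between them. Jdp2 had 70.8 for IL-5+ cells against 31.7, under the floor, for IL-5- cells, so that it was at least 1.95-fold higher.

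**Figure D2:**
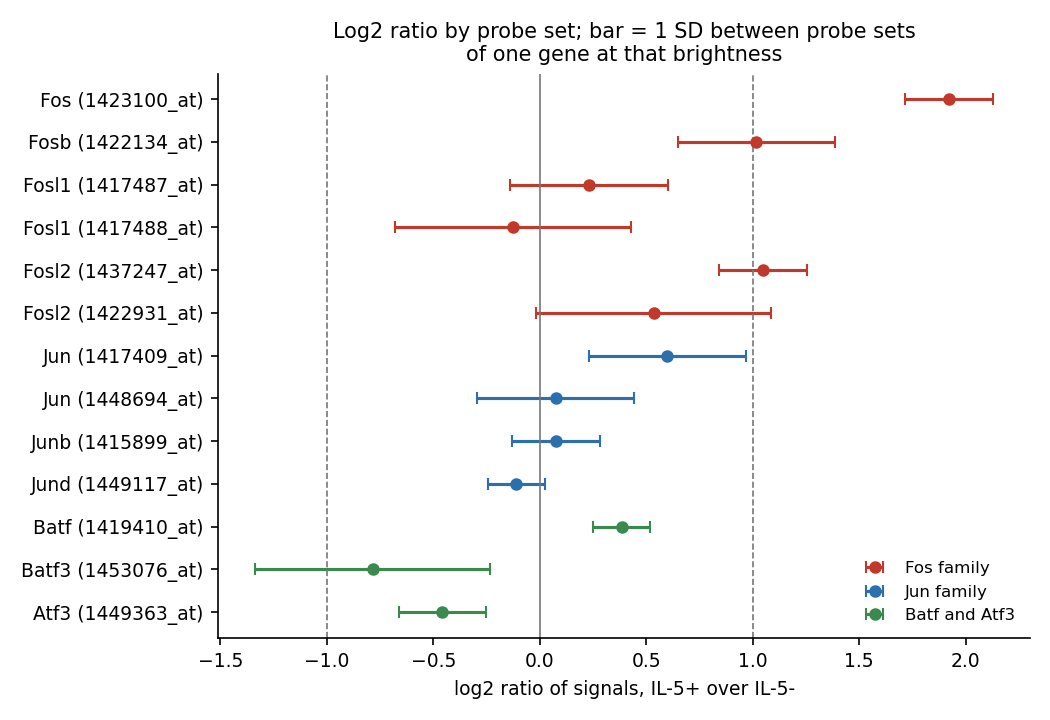
Log2 signal ratio (IL-5+ over IL-5-) for the 13 member probe sets above the floor, coloured by family, with bars of 1 SD between probe sets of the same gene at that brightness and dashed lines at 2-fold. The Fos bar lies wholly past the upper 2-fold line. The bars of Fosb and both Fosl2 probe sets cross that line, and the Batf3 bar crosses the lower one. The bars of Junb, Jund, both Fosl1 probe sets and the dimmer Fosl2 and Jun probe sets cross 0.

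Set against the SD between probe sets, the main ratios of 5 members were more than 2 SD from 0 (Fos, Fosl2, Fosb, Batf and Atf3). Those of Jun and Batf3 lay between 1 and 2 SD, and those of Fosl1, Junb and Jund within 1 SD. Being past 2 SD means only that a ratio exceeded the scatter among probe sets that read the same RNA at like brightness. The share of all genes past 2 SD was not counted, so the 5 members cannot be set against it. The interquartile range of all named genes above the floor ran from -0.31 to 0.20. Of all genes, 14.3% had a higher ratio than Batf and 16.8% a lower one than Atf3, so ratios of this size were not rare. The sign of every member's ratio was the same under the 9 other scalings, floors and probe set choices tried. None of the 9 took a dimmer probe set alone, at which Fosl1 had a ratio of the other sign (-0.13). Fos had a log2 ratio of 1.81 or more and was past 2-fold in all 9, Fosb in 8 and Fosl2 in 7. Not all of these alternatives could change a ratio. Fos and Fosb each have a single probe set, brighter than every floor tried. The other floors and probe set choices therefore could not move them. Only the scalings and a constant added to every signal could, and the same held for Junb, Batf and Atf3. The ratio of Fosl2, whose brighter probe set also lay above every floor, could be moved only by these and by the median of its probe sets. Adding 36.3 to every signal in place of the floor left Fosb at 0.93 and Fosl2 at 0.99, so that 1 of 10 members (Fos) was past 2-fold. Taking a median over the probe sets of a gene left Fosl2 at 0.79 and 2 of 10 past it. The ratio of Batf3 was -0.36 with a floor of 112.8, and that of Jun was 0.34 with the median of its probe sets.

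**Figure D3:**
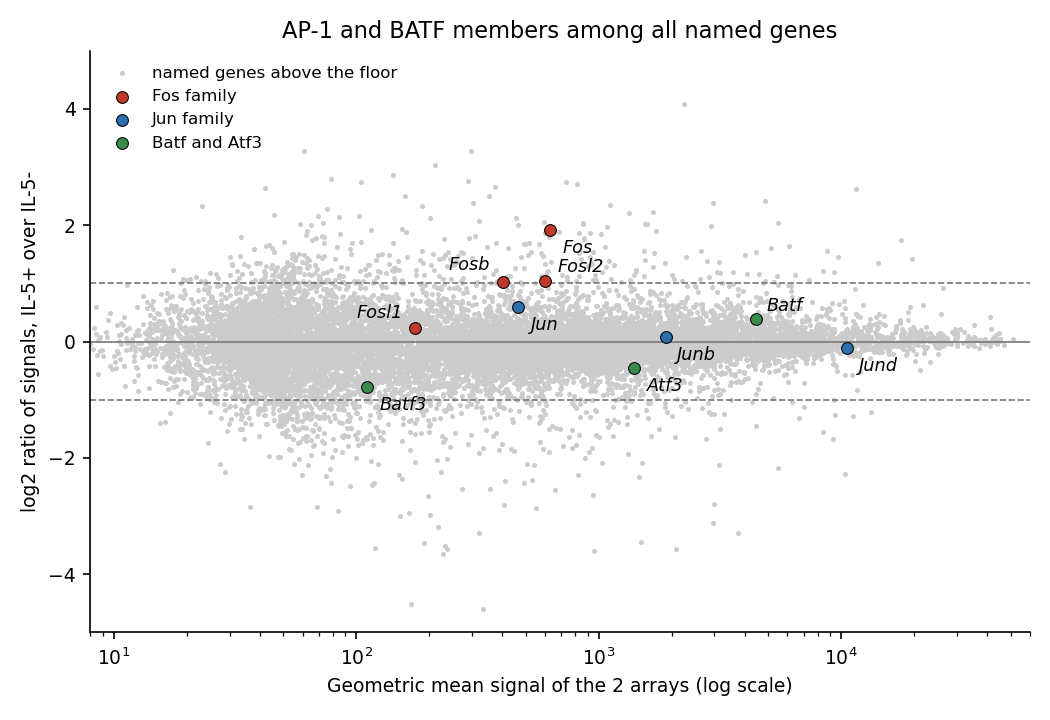
Log2 ratio (IL-5+ over IL-5-) against the geometric mean signal of both arrays (log axis) for the named genes above the floor in grey, at their brightest probe set, with the 10 members coloured by family. Il5 lies beyond the upper edge. Fos, Fosl2 and Fosb lie at or above the 2-fold line at medium brightness, while Junb and Jund sit in the dense band around 0.

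**Figure D4:**
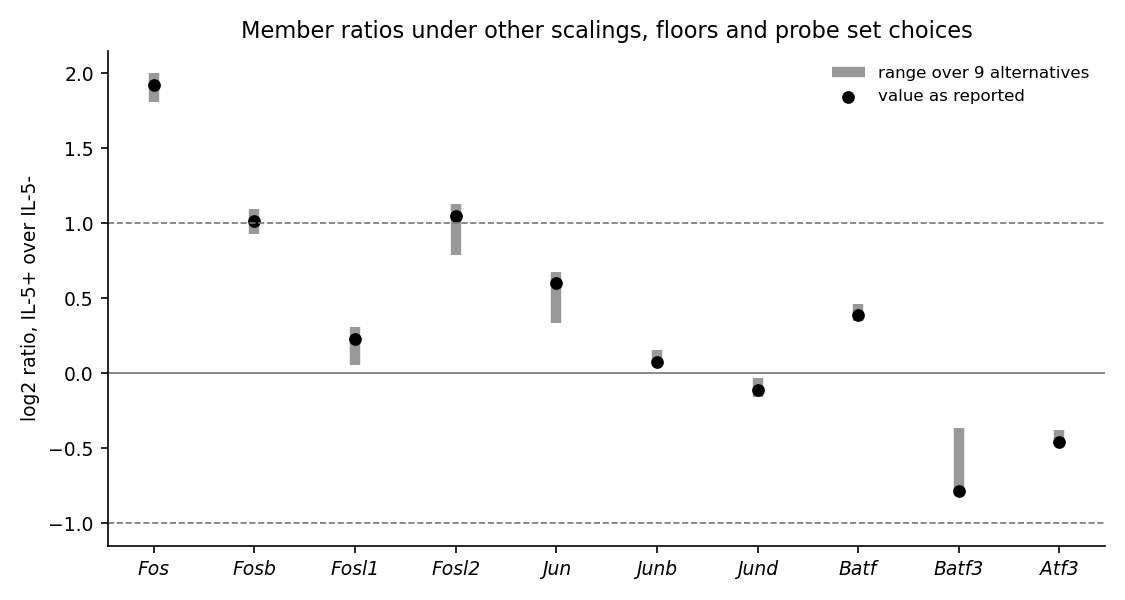
Log2 ratio (IL-5+ over IL-5-) of each member as reported (point) and its range over 9 alternatives (grey bar), with dashed lines at 2-fold. Fos stays at 1.81 or above, the Fosb and Fosl2 bars cross the 2-fold line, and no bar crosses 0. The bars of Fos and Fosb reflect the scalings and the added constant only.

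The genes that act above, beside and below the AP-1 factors are given from lists, at each gene's brightest probe set. The counts stand beside 2.85% of all named genes above the floor at least 2-fold higher and 4.01% lower. In the MAP kinase cascades, which phosphorylate Jun and induce Fos, 2 of 25 genes above the floor were at least 2-fold higher and 0 lower (median 0.17). They were Map3k8, which encodes the kinase Tpl2 and had 1402 for IL-5+ against 673.9 for IL-5- cells (log2 ratio 1.06), and Rps6ka5, which encodes MSK1, a kinase of CREB and histone H3 (221.1 against 92.1, 1.26, but 0.97 with a floor of 112.8). Mapk8, the Jun kinase JNK1, stood at 0.17, and 7 of the 34 listed genes were not analysed here. Of 5 measured serum response and ternary complex factor genes, which act on the Fos promoter, 1 was higher, Elk3 (1755 for IL-5+ against 862.3 for IL-5- cells, 1.03), which came under 2-fold with the added constant and with the median of its probe sets, and Srf stood at 0.14. Among 15 genes that limit AP-1 activity or turn over its transcripts and proteins, Dusp4, a MAP kinase phosphatase, was 2-fold higher (6983 against 3395, 1.04) and none was 2-fold lower.

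Among the IRF genes, some of which encode partners of BATF, lower signals in IL-5+ cells were more common. Of 8 above the floor, 0 were at least 2-fold higher and 3 lower (median -0.62): Irf1 (2130 for IL-5+ against 5050 for IL-5- cells, -1.25), Irf2 (413.7 against 880.3, -1.09) and Irf8 (1958 against 4079, -1.06). Irf8 came under 2-fold when arrays were scaled to a common median (-0.98) and with the median of its probe sets (-0.91). Irf4 had 9980 for IL-5+ against 14340 for IL-5- cells, a log2 ratio of -0.52, while its partner Batf stood at 0.39. NFAT genes, whose products bind with Fos and Jun on cytokine promoters, had 0 of 5 past 2-fold in either direction (median -0.18).

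Other immediate early genes, which are induced by many of the same signals as Fos, were mixed. Of 26 above the floor, 1 was at least 2-fold higher and 3 lower (median 0.20). Ier3 was higher (9016 for IL-5+ against 2946 for IL-5- cells, 1.61). Arc (63.2 against 217, -1.78, but -0.94 with a floor of 112.8) and Gadd45g (348.9 against 922.3, -1.40) were lower, as was Egr4, which passed the floor for IL-5- cells alone (20.4 against 87.1, at least 2.40-fold, and under 112.8 on both arrays). Fos (1.92) thus had a higher ratio than all 26 of them. Heat shock and dissociation stress genes, which like Fos can respond to cell handling, had 0 of 14 at least 2-fold higher and 1 lower, Hspa1a (25.4 against 157.2, at least 4.33-fold, but -0.48 on the log2 scale with a floor of 112.8), with a median of -0.035. The part of cell handling in the Fos difference was not tested. Some cytokine genes had high signals on both arrays. Il2 had 36010 for IL-5+ against 19128 for IL-5- cells, Il3 47716 against 35500 and Ifng 17909 against 22634. The labels do not say whether the cells were stimulated before the sort, and the part of stimulation in the Fos difference was not tested.

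Among 21 T cell genes with described AP-1 or BATF sites, 7 were at least 2-fold higher and 2 lower (median 0.43). The list was drawn up with the cytokine results known, and Il5, on which the cells were sorted, is 1 of the 7. The others of the 7 were Il9 (log2 ratio 4.08), Il13 (2.63), Il6 (2.51), Il17a (2.42), Il4 (1.74) and Csf2 (1.41). The lower ones were Ikzf2 (216.4 for IL-5+ against 731.7 for IL-5- cells, -1.76) and Il21 (369 against 896.1, -1.28, but 0.44 at its other probe set and -0.42 as their median).

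**Figure D5:**
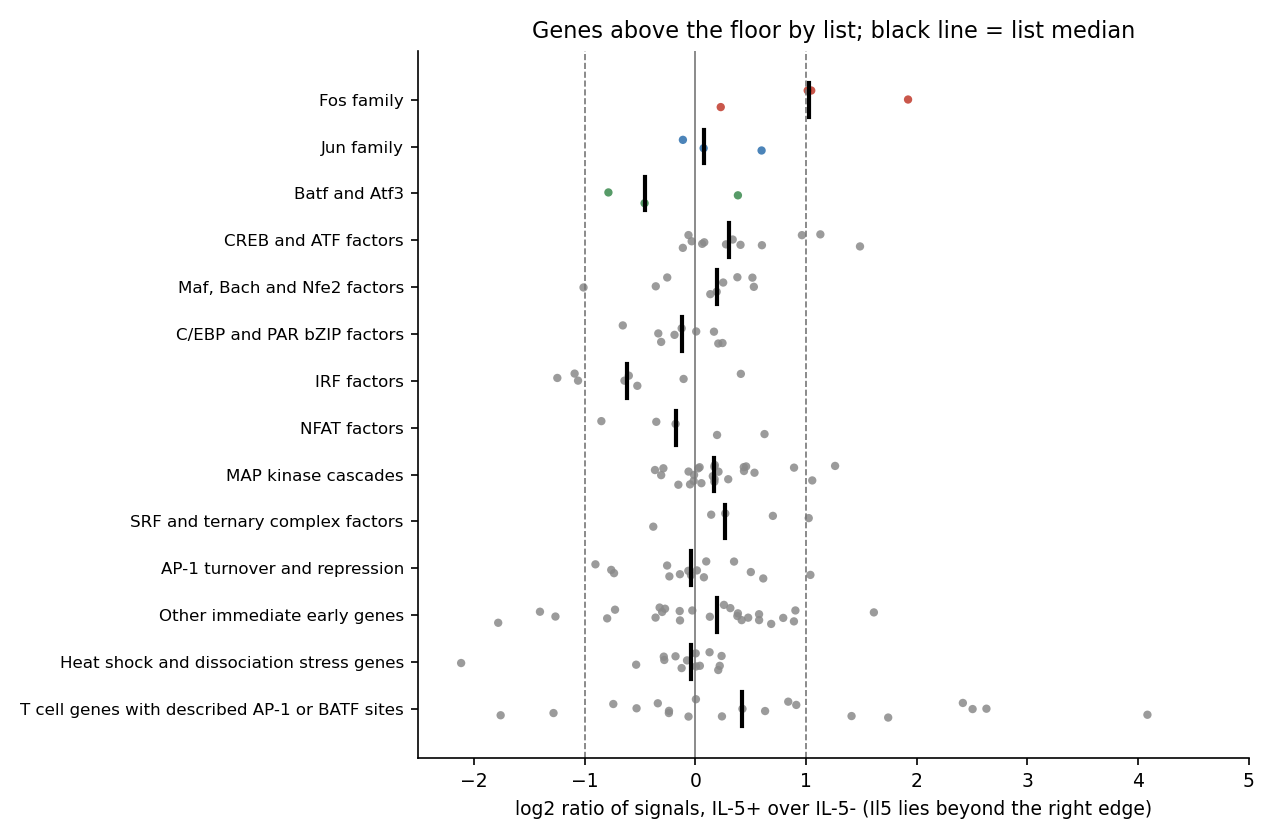
Log2 ratio (IL-5+ over IL-5-) of each gene above the floor, by list, with black lines at list medians and dashed lines at 2-fold. The Fos family median (1.03) lies to the right of every other list's, and the IRF median (-0.62) to the left.

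Markers of the other cells that a spleen of nu/nu mice holds were mostly dim. Of the 8 dendritic cell and MHC class II genes, 1 passed the 2-fold limit, H2-Aa, lower in IL-5+ cells (51 against 155.8, and -0.47 on the log2 scale with a floor of 112.8). The brightest others of that list were H2-Ab1 (156.6 against 250.4) and Cd74 (139.7 against 163.9), Flt3 did not reach the floor on either array, and the list summed to 593 for IL-5+ and 789.7 for IL-5- cells. The list did not move one way: Zbtb46 had 149.7 for IL-5+ against 79.1 for IL-5- cells (log2 ratio 0.92, but -0.33 at its lowest probe set), Xcr1 had 41.1 against 8 (at least 1.13-fold higher), and Itgax had 18 against 70.1 (at least 1.93-fold lower). Batf3 is known from dendritic cells, and the part of such cells in its ratio was not tested. The 8 B cell markers summed to 227.9 (IL-5+) against 297.5 (IL-5-), with Ms4a1 (60.7 against 62.1) and Fcer2a (41.3 against 30.1) the brightest by mean log2 signal, and Cd79a under the floor on both arrays. Pax5 (6.4 against 70.2, at least 1.93-fold lower) and Blk (8.7 against 48, at least 1.32-fold lower) were above the floor for IL-5- cells only. The 9 monocyte and macrophage markers summed to 2507 against 3639, nearly all of it from Ctss (2210 against 3279), followed by Csf1r (105.6 against 124.5), while Cd14 was under the floor on both arrays. Of the 10 mast cell, basophil and eosinophil markers, 7 were under the floor on both arrays, Hdc (352.8 against 10.4) was the 1 gene at least 2-fold apart, Tpsb2 stood at 36.4 against 52.8, and the list summed to 463.6 against 207.9. The 5 NK cell markers summed to 172.7 against 55, and the brightest by mean log2 signal, Tyrobp (26 against 21.9) and Ncr1 (18.3 against 21.1), were under the floor on both arrays. Fcer1g (61.4 against 4.7, at least 1.69-fold higher) and Klre1 (39.4 against 3.9, at least 1.09-fold higher) were above the floor for IL-5+ cells only, so their differences have no upper limit here. The 4 erythroid markers summed to 199.1 against 177.1, with Car2 (113.7 against 121.9) and Klf1 (46.1 against 33.1) the brightest. Cd8a (66.9 against 76.7) and Cd8b1 (280.2 against 168.4), the CD8 T cell markers, were not 2-fold apart.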

How the data were processed

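Gene expression was measured on 2 arrays, 1 of IL-5+ and 1 of IL-5- memory Th2 cells. For each probe set and array the authors deposited a linear signal intensity, and the submitters' processing notes name GCOS, a software of the array's maker. Its version is not given in the sources used here, nor is its scaling target. The means without the lowest and highest 2% of signals were 496 (IL-5+) and 497 (IL-5-), so a ratio shows a change relative to the other genes. Ratios near background scattered more between probe sets (SD 0.55 at mean signals from 36.3 to 112.8) than those above 2000 (0.13). Signals near the top of the range (51950) may be compressed, which was not tested. Precision is limited by the number of arrays.

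Of the probe sets, 34945 had 1 gene symbol, 932 several and 9160 none in the platform annotation. The entrez identifiers of 34741 matched RefSeq genes of GRCm38.p6, with no symbol changed. Each gene took the values of its brightest probe set (mean log2 signal of both arrays). Signals under the floor were set to it, and a gene above it on 1 array only has a bound. Named genes were all members, the genes past 2-fold of each pathway list (at most 4), Irf4, Irf8, Srf and Mapk8, and of marker lists the brightest 2 and those past 2-fold. Genes of like pattern were not sought, since 2 arrays give 1 ratio per gene. Other genes named were chosen after their values were seen. Members and lists were chosen with earlier results of these data known. Alternatives were 3 scalings (array median, quantile, loess with a span of 0.4), floors at percentile 20 and 60 or none, an added constant, 2 other probe set choices and thresholds of 1.5-fold and 3-fold. Calling was tested on simulated arrays. Computations ran in Python 3.11.15 with pandas 2.3.3, numpy 2.4.6, statsmodels 0.14.6, scipy 1.17.1 and matplotlib 3.10.9.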

Additional observations from a re-analysis of the deposited data

How the results depend on the processing

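The number of members at least 2-fold higher in IL-5+ cells was 3, and it was 1 with the added constant, 2 with the median of probe sets, 4 at 1.5-fold (adding Jun) and 1 at 3-fold. The number lower was 0, and 1 at 1.5-fold (Batf3). The members' median log2 ratio ranged from 0.21 to 0.39 over 9 alternatives, and no member's ratio changed sign. None of these took a dimmer probe set alone, at which Fosl1 had -0.13. For members with a single bright probe set, only the scalings and the added constant could change the ratio. Over all genes, 374 were higher and 526 lower, against 1325 and 1572 with a floor at percentile 20, 2058 and 2314 with none, 183 and 226 at percentile 60, 1036 and 1563 at 1.5-fold, and 91 and 143 at 3-fold. Scaling moved the median of all genes from -0.048 to at most 0.026. Dim probe sets, such as those of Batf3 and Fosl1, limit what can be read from the smaller ratios. No paired analysis was possible because each group has 1 array.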

Other observations

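Other bZIP genes differed by list. Of 12 CREB and ATF genes above the floor, 9 had a log2 ratio above 0, against 44.5% of all named genes. The median of these 12, 0.31, was the same as that of the 10 members. Against 2.85% of all named genes higher and 4.01% lower, 2 of these 12 were at least 2-fold higher in IL-5+ cells and 0 lower. They were Creb3l2 (853.8 in IL-5+ and 304.3 in IL-5- cells, 1.49, with probe sets at 1.20 and 1.49) and Atf6 (884.2 and 403.9, 1.13, with 3 probe sets from 1.13 to 1.63), both of which encode factors anchored in the membrane of the endoplasmic reticulum and released by cleavage. Of 9 Maf, Bach and Nfe2 genes, 1 was lower, Maf (819.4 and 1649, -1.01), which was under 2-fold in the 3 other scalings and with the added constant. The 5 probe sets of Maf above the floor ranged from -1.88 to -0.35, with a median of -1.05. None of the 9 C/EBP and PAR bZIP genes was 2-fold apart at its brightest probe set (median -0.12). Dbp had -0.65 there but -1.75 at its other probe set. In this list 1 gene was at least 2-fold lower without a floor, and 1 with either of the other probe set choices.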
